A study of Danio rerio with 5 samples.

Results

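The regions described here are the Drl and Blf sites near the ends of zebrafish chromosomes. Drl (draculin) and Blf (bloody fingers) are zinc-finger proteins of early blood development, a class of protein that often binds DNA. The ends of vertebrate chromosomes carry telomere repeats, and the stretches next to them are often rich in repeats and in sequence that occurs in several copies. Such stretches are hard to assemble, and short reads from them are hard to place.

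A site was a set of peaks, from any of the 4 deposited lists, that overlapped by 1 bp or more. It was called for a factor when both lists of that factor had a peak there, which made it a Drl site, a Blf site or both. A site was counted as near an end when its centre lay within 1 Mb of position 0 (the first end) or of the last peak end on that chromosome over the 4 lists (the far end). Chromosomes 1 to 25 were used, and chromosome 4 from 30 Mb was left out. This gave 989 near-end sites of 7258 Drl or Blf sites in all, with 5921 in the interior and 348 on the part of chromosome 4 that was left out. The near-end sites lay on 49 ends, and 24 chromosomes had both ends in the comparison. The full chromosome lengths of GRCz11, its sequence and its genes were not used here, so sites are given by position alone.

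The 4 lists come from CUT&Tag, in which an antibody brings a transposase to the bound protein and the DNA beside it is cut and tagged. In the Drl-FLAG group (2 libraries), blf-/-;drl 4KO embryos had received drl-Flag mRNA, and in the Blf-FLAG group (2 libraries) embryos of the same genotype had received blf-Flag mRNA. Anti-FLAG was used in both, on RFP+ hematopoietic progenitors sorted at 20 hours post fertilisation. An input without antibody, from embryos with drl-Flag mRNA, was not analysed here. The mutations are thus common to both groups, and the tagged proteins come from injected mRNA. The sources used here do not give the promoter behind RFP. The genotype labels give 1 mRNA per library, while the protocol names both without saying that they were kept apart. Were both present in the same embryos, the antibody would not separate Drl from Blf.

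The lists held 5289 and 5383 peaks for Drl-FLAG and 5482 and 5449 peaks for Blf-FLAG. Drl-FLAG had 0.919 fragments per base and Blf-FLAG 0.313, a ratio of 2.94, as inferred from folds and p-values of the peaks. The lists of a factor were too alike to count as replicates. Over near-end sites with a mean of at least 20 fragments, the squared difference over the sum of the counts averaged 0.385 for Drl (251 sites) and 0.296 for Blf (93 sites), where independent Poisson counts would give 1. They differed by less than the sampling noise and were counted as 1 sample for each factor. No p-value is therefore given. The 95% intervals reflect counting error alone and take each site as independent, which neighbouring sites are not.

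The outermost 1 Mb was dense in sites of both factors, and more so for Blf. Near-end windows made up 3.78% of the span and held 14.3% of the sites, with the left-out arm of chromosome 4 in neither. Near the ends there were 538 Drl sites, or 11 per Mb, against 3754 or 3.01 per Mb in the interior. The ratio was 3.65 (3.33 to 3.99). For Blf there were 657 near-end sites, or 13.4 per Mb, against 3015 or 2.42 per Mb in the interior, a ratio of 5.55 (5.09 to 6.04). Drl thus had the higher density of the pair in the interior and Blf the higher density near the ends.

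All 49 ends had more sites per Mb, and more Drl sites per Mb, than the interior of their own chromosome. For Blf sites this held at 48 of the 49 ends. The exception was the first end of chromosome 3, with 3 Blf sites in its 1 Mb against 3.23 per Mb in the interior. Relative to the interior of the same chromosome, the Blf density exceeded the Drl density at 41 of the 49 ends. Blf-only sites outnumbered Drl-only sites at 31 ends, Drl-only sites were the more numerous at 14, and 4 ends had as many of each.

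The density fell with distance from the end. Drl sites numbered 28.0 per Mb (23.5 to 33.0) in the outermost 100 kb, 16.1 (13.3 to 19.2) from 100 to 250 kb, 12.2 (10.3 to 14.3) from 250 to 500 kb, and 5.22 (4.02 to 6.67) from 500 to 750 kb. Blf sites numbered 33.9 per Mb (28.9 to 39.4), 22.4 (19.2 to 26.1), 13.1 (11.2 to 15.3) and 7.43 (5.98 to 9.12) over the same steps. Between 750 kb and 1 Mb the densities were 5.71 for Drl and 6.04 for Blf. The decline went on past the limit that defines a near-end site. From 1 to 1.5 Mb, Drl had 4.82 (3.99 to 5.77) and Blf 5.06 (4.21 to 6.03) sites per Mb, and from 1.5 to 2 Mb 3.18 and 3.47. Beyond 10 Mb, Drl had 3.15 (3.03 to 3.27) and Blf 2.28 (2.18 to 2.39). The lowest Drl density was between 3 and 5 Mb, at 2.35 (2.05 to 2.67), below that of the deep interior.

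**Figure D1:**
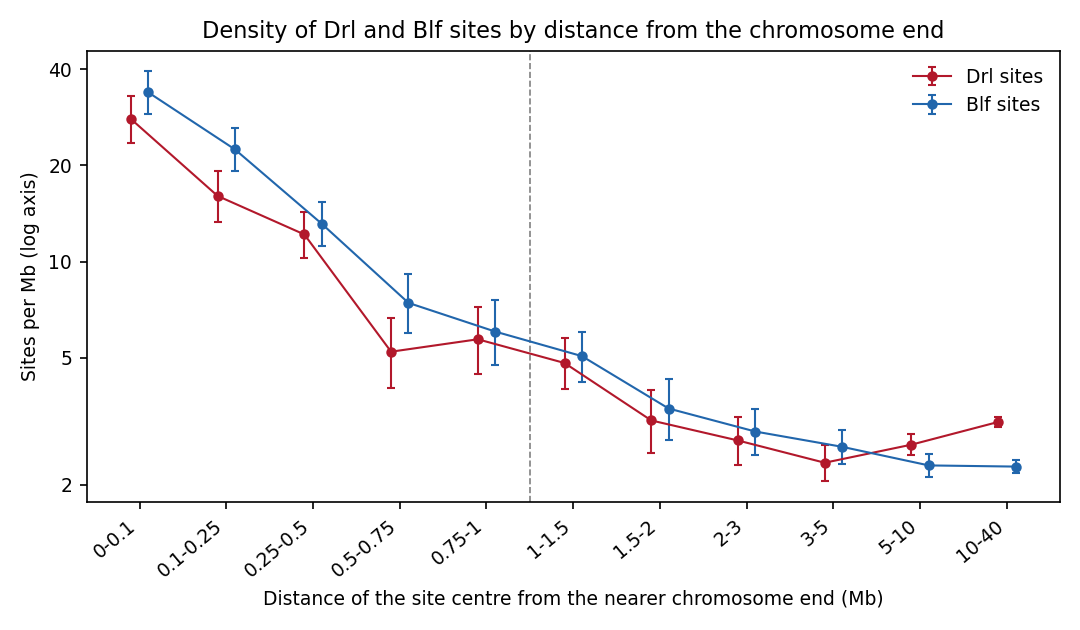
Drl and Blf sites per Mb (log axis) by distance of the site centre from the nearer chromosome end, with exact Poisson 95% intervals as bars and the 1-Mb limit as a dashed line. Both densities are highest in the outermost 100 kb (28.0 for Drl, 33.9 for Blf), and the order of the 2 factors is turned round beyond 5 Mb.

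Of the 989 near-end sites, 238 (24.1%) lay in the outermost 100 kb, 474 (47.9%, 44.8 to 51.1) in the outermost 250 kb and 733 (74.1%) in the outermost 500 kb. The median distance from the end was 238 kb for sites of both factors, 321 kb for Drl-only sites and 268 kb for Blf-only sites. The 4 sites nearest to an end were all at far ends, where a peak marks the end by definition. Their centres lay 0.19 to 0.26 kb from the ends of chromosomes 14, 16, 9 and 19. The first 3 had means of 11.5, 7.5 and 13 fragments at the summit over the Blf-FLAG lists, and the last had 9.5 over the Drl-FLAG lists. At first ends, where position 0 is the mark, the first peak of any list started between position 103 and 120 kb, with a median of 15.8 kb.

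At the limit itself, the sites on its inner and outer side were single-factor sites. Just inside it, a Blf-only site on chromosome 15 from 998903 to 999341 had 6 fragments in both Blf-FLAG lists, and a Drl-only site on chromosome 25 from 997380 to 997915 had 12 in both Drl-FLAG lists. Just outside, a Blf-only site on chromosome 10 from 44379822 to 44380224 had 5 fragments in Blf-FLAG 1 and in Blf-FLAG 2. A Drl-only site on the same chromosome from 44377673 to 44378085 had 20 and 19 fragments in the Drl-FLAG lists.

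The near-end sites fell into 206 sites of both factors (20.8%), 274 Drl-only sites (27.7%) and 413 Blf-only sites (41.8%). A site of a single factor had no peak in any list of the other. A further 58 were Drl sites with a peak in a single Blf-FLAG list, and 38 were Blf sites with a peak in a single Drl-FLAG list. In the interior, Drl-only sites were the largest class, with 2739, followed by 1984 Blf-only and 848 shared sites. Density near the ends over that in the interior was 6.18 (5.28 to 7.21) for shared sites, 2.55 (2.24 to 2.88) for Drl-only sites and 5.30 (4.75 to 5.89) for Blf-only sites. The interval for Drl-only sites did not meet that of either other class.

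Of the near-end Drl sites, 38.3% (34.2 to 42.5) were also called for Blf, against 22.6% (21.3 to 24) of the interior Drl sites. Over all chromosomes the share was 25.3%. Of the near-end Blf sites, 31.4% (27.8 to 35.1) were also called for Drl, against 28.1% (26.5 to 29.8) in the interior and 28.6% over all chromosomes. The Drl share differed between ends and interior by more than its intervals, while the intervals of the Blf share overlapped. Both shares count the same shared sites, 206 near the ends and 848 in the interior, over the Drl or the Blf sites. The rise in the Drl share is thus not separate from the larger number of Blf sites relative to Drl sites near the ends. Drl-only sites made up 50.9% of the near-end Drl sites, against 73.0% in the interior and 69.4% over all chromosomes. Blf-only sites made up 62.9% of the near-end Blf sites, against 65.8% in the interior and 65.1% over all chromosomes.

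The shared part of the Drl sites was highest at the very end. It was 47.4% (38.9 to 56.2) in the outermost 100 kb, 39.8% (30.9 to 49.2) from 100 to 250 kb, 34.2% (26.7 to 42.4) from 250 to 500 kb and 21.8% (20.2 to 23.5) beyond 10 Mb. For Blf sites it was 39.2% (31.7 to 47.0) in the outermost 100 kb, 28.5% (21.7 to 36.0) from 100 to 250 kb and 30.1% (28.0 to 32.3) beyond 10 Mb. Blf-FLAG was covered less deeply than Drl-FLAG, and the part of depth in the Drl-only class was not tested. With fragments scaled to the Blf-FLAG coverage, 16.1% (11.9 to 21) of near-end Drl-only sites would fall under 4 fragments, the lowest number at any Blf-FLAG summit, against 27.6% (25.9 to 29.3) of those in the interior. A peak needs more fragments where the level set against it is higher, as was more often so near the ends (below). A single floor of 4 fragments thus cannot compare this loss between ends and interior.

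The control background was more often high at near-end sites than at interior sites. It is the level that the peak caller set against each summit, and fold and p-value of a peak together fix it. Which library served as control is not stated in the labels. At 199 shared near-end sites with both values read, the relative background in Drl-FLAG 1 and Blf-FLAG 1 was within 1% at 106 (53.3%). Over the 199 sites the values of the lists had a Pearson r of 0.94 on the log scale and a Spearman rho of 0.88. Part of this match is by construction. Of all 206 shared near-end sites, 67 were at the genome-wide value, where relative backgrounds are equal. The match above that value is not given. A site had raised background when its control background exceeded 2 times that of the genome as a whole. Low values often came in steps, for example 1.36 and 2.71 times in Drl-FLAG 1 and 1.31 and 2.62 times in Blf-FLAG 1. A value just over the limit may thus rest on few control fragments. Over 3 times the genome-wide value, the share of near-end sites was 27.3%. Background was raised at 43.9% of near-end sites (40.8 to 47.0), against 21.2% in the interior (20.2 to 22.3) and 26.1% over all chromosomes. By class it was raised at 46.6% of shared, 36.5% of Drl-only and 46.7% of Blf-only sites near the ends, against 32.3%, 10.8% and 27.4% of the same classes in the interior. A shared site takes the highest value over more lists than a site of a single factor. Shares of shared and single-factor sites are thus not on the same footing, while each class can be set against itself. Background was at the genome-wide value at 34.6% of near-end sites, against 63.9% in the interior and 58.0% over all chromosomes. The share of sites with raised background also changed with distance, from 55.9% (49.3 to 62.3) in the outermost 100 kb to 29.8% (21.8 to 38.7) between 750 kb and 1 Mb and 20.9% (19.6 to 22.2) beyond 10 Mb.

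**Figure D2:**
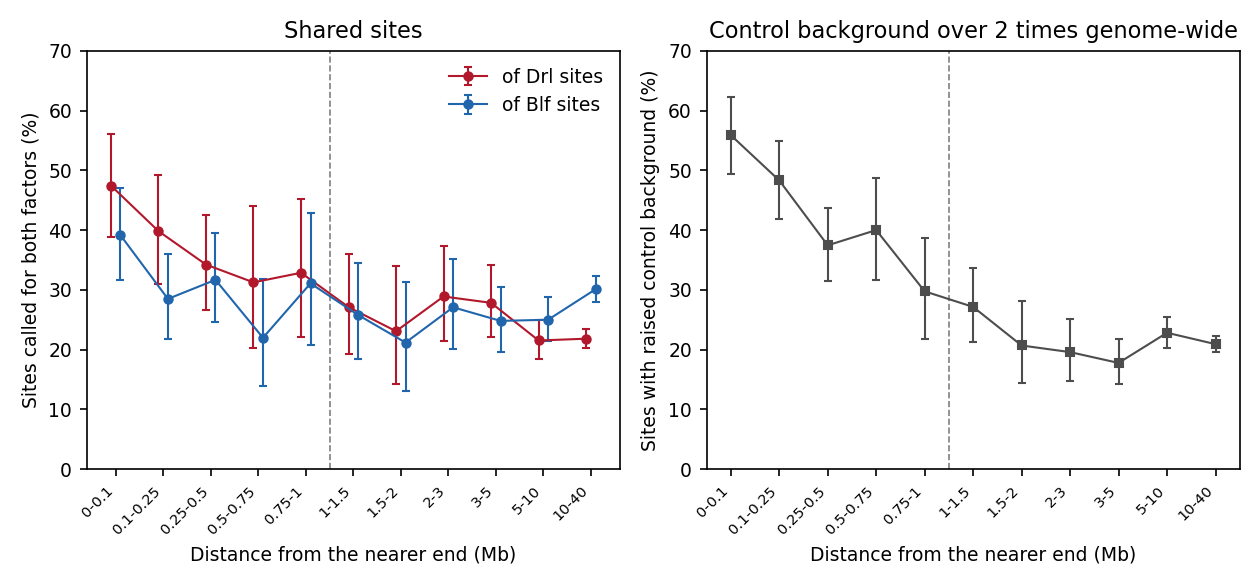
Left, the share of Drl sites and of Blf sites called for both factors; right, the share of sites with a control background over 2 times the genome-wide value; both in percent by distance from the nearer chromosome end, with exact 95% intervals and the 1-Mb limit as a dashed line. The outermost 100 kb has the highest value in each panel (47.4% of Drl sites, 39.2% of Blf sites and 55.9% raised).

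Over the whole span, the ratio of near-end to interior density was smaller among sites without raised background, and still above 1. Background was read at peaks alone, so the span at each background is not known and these ratios are not matched for it. With raised sites left out, the density near the ends was 2.52 times (2.23 to 2.83) that of the interior for Drl and 4.30 times (3.84 to 4.82) for Blf. Among sites at the genome-wide background, the ratio was 1.89 (1.62 to 2.19) for Drl and 3.41 (2.94 to 3.93) for Blf. At that background it was 4.03 (3.07 to 5.23) for shared sites, 1.37 (1.12 to 1.66) for Drl-only sites and 3.06 (2.55 to 3.66) for Blf-only sites. Among raised sites alone, the ratios were 8.98, 8.60 and 9.03 for the 3 classes, so there the classes differed by less than their intervals.

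The shared part of the Drl sites also differed with background, which is not free of how background was set. A site took the highest value over the lists with a peak there, and shared sites have peaks in more lists than other Drl sites. Shared sites are thus more readily put among the raised sites by construction. How much of the contrast between backgrounds this makes up was not tested. At the genome-wide background, 34.9% (28.2 to 42.1) of near-end Drl sites were shared, against 16.4% (15.0 to 17.9) in the interior. At raised background the shares were 41.9% (35.5 to 48.6) near the ends and 43.7% (39.8 to 47.7) in the interior. The shared part of near-end Drl sites thus exceeded the interior value at low background, while at raised background the intervals overlapped. Of the Blf sites at the genome-wide background, 30.9% were shared near the ends and 26.1% in the interior, with overlapping intervals. That background held 217 Blf and 192 Drl sites near the ends, against 1620 and 2584 in the interior. The higher Drl share there is thus again not separate from the larger number of Blf sites relative to Drl sites.

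**Figure D3:**
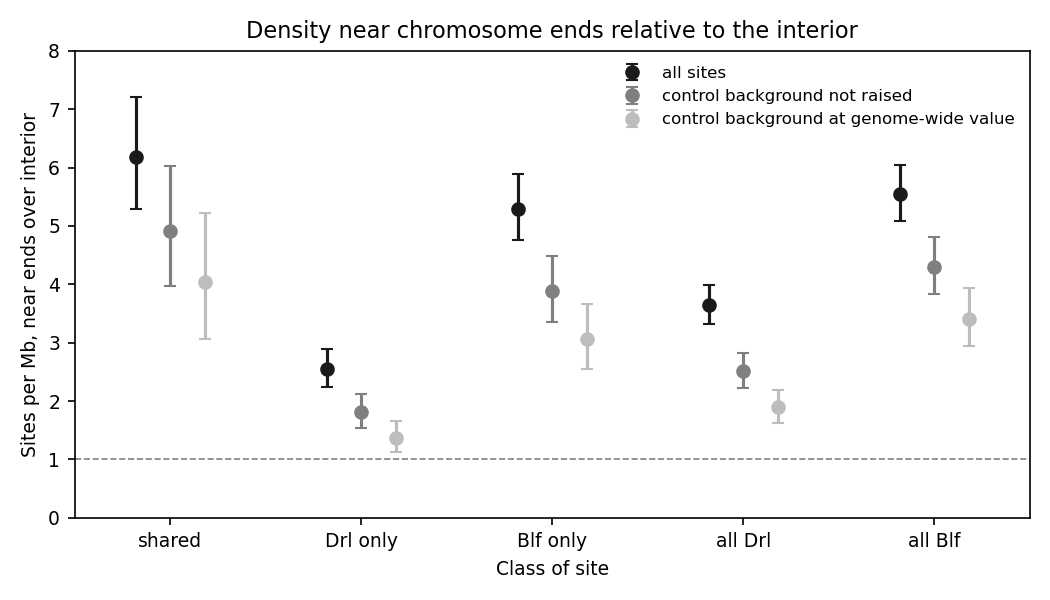
Sites per Mb near chromosome ends over sites per Mb in the interior, for shared, Drl-only, Blf-only, all Drl and all Blf sites, with exact 95% intervals; black is all sites, mid grey those without raised control background, light grey those at the genome-wide background, and the dashed line is a ratio of 1. Each ratio is over the whole span, whatever its background. Every ratio lies above 1, and Drl-only sites have the lowest in each shade (2.55, 1.81 and 1.37).

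At shared sites, near-end Blf peaks had a higher median fold than interior ones, and near-end Drl peaks a slightly lower median. Folds are the authors' enrichment at the summit and are compared within a list only. At shared sites the median fold was 8.38 near the ends and 6.38 in the interior in Blf-FLAG 1, and 7.98 and 6.39 in Blf-FLAG 2. In Drl-FLAG 1 it was 7.51 near the ends and 7.96 in the interior, and in Drl-FLAG 2 7.54 and 7.96. Sites at the genome-wide background had the same order, with 7.62 near the ends and 6.09 in the interior in both Blf-FLAG lists, and 7.96 and 8.43 in both Drl-FLAG lists. At Blf-only sites the medians were 6.05 and 5.80 near the ends (Blf-FLAG 1 and 2) and 5.33 in the interior in both lists. At the genome-wide background they were 6.09 and 5.33 near the ends, against 5.33 in both lists in the interior, so there the lists differed. At Drl-only sites they were 6.12 near the ends and 6.58 in the interior in both Drl-FLAG lists. The order at Drl-only sites did not hold at the genome-wide background, where those near the ends had 7.04 and 6.58 (Drl-FLAG 1 and 2) and interior ones 6.58 in both. Folds take few values at low counts, so medians can coincide.

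Ranked by fold, Blf sites of the highest decile lay near an end in 28.3% of cases (23.7 to 33.2) and those of the lowest decile in 12.3% (9.09 to 16.1). Of all Blf sites 17.9% lay near an end, and of all Drl sites 12.5%. The deciles were not split by background, which enters the fold. The Drl deciles had no such order. Near-end sites made up 20.0% (16.4 to 24.2) of the lowest, 9.79% (7.15 to 13) of the least filled and 16.3% (12.9 to 20.1) of the highest decile. Over sites of any background, median fragments at the summit were higher near the ends in every class. Medians were 17 at near-end Drl-only sites, against 14 in the interior, and 10 at near-end Blf-only sites, against 7. They were 23 and 24 at shared sites in the Drl-FLAG lists, against 20 in both in the interior, and 14 in both Blf-FLAG lists, against 9. At shared sites at the genome-wide background, the Drl-FLAG medians were 16 near the ends and 17 in the interior, and the Blf-FLAG medians 9 and 7. At that background, near-end Drl-only sites had 14 and 13 (Drl-FLAG 1 and 2), against 13 in both lists in the interior. Near-end Blf-only sites had 7 and 6 (Blf-FLAG 1 and 2), against 6 in both.

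Shared near-end sites were 860 bp wide in the median, against 818 bp in the interior. Drl-only sites measured 536 bp near the ends and 501 bp in the interior, and Blf-only sites 497 bp and 454 bp. The quartiles of these widths overlapped between ends and interior in each class. Over 2000 bp were 17 shared sites near the ends (8.25%) and 43 in the interior (5.07%). Shared sites combine up to 4 lists, which favours width.

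The strongest sites were ranked by the mean percentile of their fold within the lists of a factor. The 8 highest-ranked Drl sites near an end were all called for Blf too, against 38.3% of near-end Drl sites and 25.3% over all chromosomes. In the interior too, the median Drl-FLAG 1 fold was higher at shared sites (7.96) than at Drl-only sites (6.58). First of the 8 came chromosome 18 from 50804311 to 50805161, 180 kb from the far end, with a fold of 122 in Drl-FLAG 1 and 120 in Drl-FLAG 2. Its folds in Blf-FLAG 1 and 2 were 16 and 12.9. Its Blf-FLAG summits held 20 and 16 fragments at the genome-wide background. The seventh, on chromosome 19 from 48120204 to 48121628, was likewise at the genome-wide background, with 71 and 77 Drl-FLAG fragments and 7 and 8 Blf-FLAG fragments. The Blf-FLAG counts of the chromosome 19 site lay at about the median of 8 fragments over all Blf-FLAG peaks.

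The second to sixth places were of another kind, with a background 10.4 to 12.9 times the genome-wide value in the Blf-FLAG lists. Second was a site of 8453 bp at the first end of chromosome 7, from 1875 to 10327, with Drl-FLAG folds of 52.3 and 50.3 and 141 and 143 Blf-FLAG fragments. The next 3 lay side by side at the first end of chromosome 5, from 817189 to 827736, 814466 to 816198 and 828837 to 836764. Their Blf-FLAG summits held 181 in both lists, 123 and 118, and 163 and 160 fragments. Sixth was chromosome 20 from 55163813 to 55164931, 5.49 kb from the far end, with 131 and 128 Blf-FLAG fragments. In the Drl-FLAG lists the p-values of the first 6 sites were too small to be read back into fragments. The eighth site, on chromosome 24 from 42152631 to 42153960, had 80 and 93 Drl-FLAG fragments and 26 and 33 Blf-FLAG fragments at 1.77 times the genome-wide background.

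The 8 highest-ranked Blf sites near an end were also all called for Drl, against 31.4% of near-end Blf sites and 28.6% over all chromosomes. All 8 were at first ends, which held 323 of the 657 near-end Blf sites. The highest lay on chromosome 11 from 13495 to 14210, with 79 and 69 Blf-FLAG fragments and 87 and 70 Drl-FLAG fragments at 1.65 times the genome-wide background. The chromosome 5 and chromosome 7 sites named above took 4 of the places. The chromosome 20 site named above, at a far end, came below the 8, with a mean Blf percentile of 99.38 against 99.43 at the eighth place. Chromosome 22 from 834065 to 834502 had 55 and 50 Blf-FLAG fragments and 39 Drl-FLAG fragments in both lists. Chromosome 4 from 123382 to 124169 had 60 and 57 Blf-FLAG fragments, against 33 and 28 in the more deeply covered Drl-FLAG lists. Chromosome 25 from 26075 to 27021 had 66 and 58 Blf-FLAG and 95 and 83 Drl-FLAG fragments. Background at these last 2 was 2.42 and 2.82 times the genome-wide value.

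Sites of a single factor were weaker. The highest Drl-only site near an end lay on chromosome 22 from 38385050 to 38387533, with 50 and 58 Drl-FLAG fragments. Chromosome 23 from 45937887 to 45938617 followed with 45 and 38, chromosome 9 from 56424786 to 56426559 with 36 and 31, and chromosome 6 from 59783116 to 59783483 with 30 and 33. All 4 were at far ends, which held 120 of the 274 near-end Drl-only sites. The background of these 4 was 1.0 to 1.21 times the genome-wide value. Among Blf-only sites, chromosome 25 from 37431900 to 37433053 ranked highest, with 43 and 31 Blf-FLAG fragments at 2.62 times the background. Chromosome 1 from 569332 to 569992 had 25 and 24 Blf-FLAG fragments, chromosome 20 from 54193735 to 54194436 27 and 25, and chromosome 16 from 914108 to 914451 19 and 25. The background of these 3 was 1.0 to 1.31 times the genome-wide value.

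The ends were then compared in pairs, the first with the far end of each of the 24 chromosomes that had both. Together the first ends held 488 sites and the far ends 480, a first-end share of 50.4% (47.2 to 53.6). The first end had more sites on 8 chromosomes, the far end on 15, and on chromosome 17 each had 20. The median difference in size between the ends of a chromosome was 9 sites. Across the 24 chromosomes, the counts at the first and far ends had a Pearson r of -0.13 and a Spearman rho of -0.20, given as a description. The counts at the ends of a chromosome thus did not go together over the set.

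**Figure D4:**
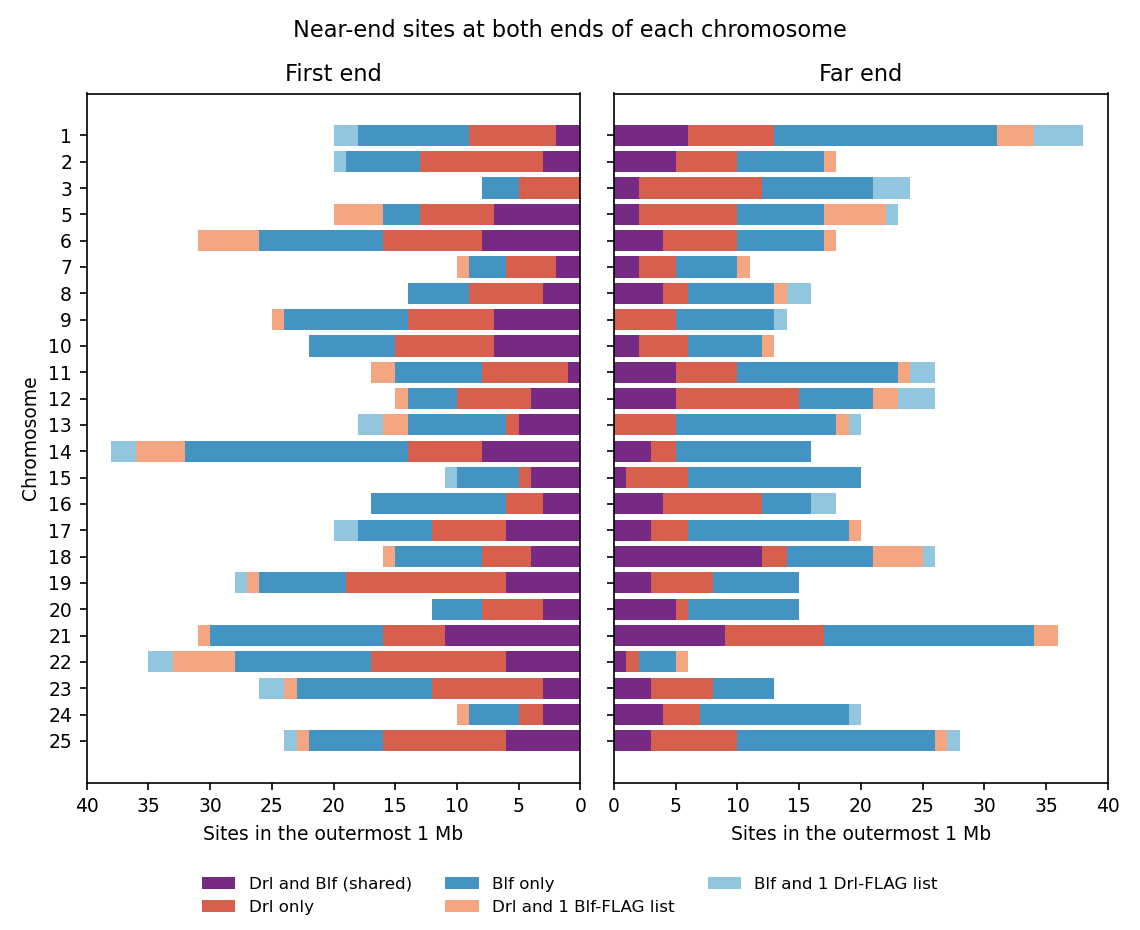
Number of near-end sites at the first end (left) and the far end (right) of each of 24 chromosomes, split by class, in the outermost 1 Mb. Chromosome 22 has 35 sites at its first end and 6 at its far end, and chromosome 17 has 20 at each.

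The widest difference was on chromosome 22, with 35 sites at the first end and 6 at the far end, a first-end share of 85.4% (70.8 to 94.4). All 3 main classes shared this order there, with 6 and 1 shared, 11 and 1 Drl-only, and 11 and 3 Blf-only sites at the first and far end. These are parts of the total by which the chromosome was picked, so their order adds no separate support. Background was raised at 57.1% of the first-end and 16.7% of the far-end sites of that chromosome. Chromosome 14 had 38 sites at the first end and 16 at the far end (70.4%, 56.4 to 82.0). Chromosome 1 had the reverse, with 20 and 38 (34.5%, 22.5 to 48.1), and chromosome 3 had 8 and 24 (25%, 11.5 to 43.4). On the other 20 chromosomes the interval included 50%. When sites under 10 kb apart were counted once, a count added after the data were seen, the interval excluded 50% on chromosome 22 (18 and 4) and chromosome 3 (7 and 18) only.

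Single ends ranged from 6 to 38 sites with a median of 20, and the variance over the mean was 2.90, where independent counts of equal mean would give 1. The far end of chromosome 1 and the first end of chromosome 14 had the most, 38 each. The far end of chromosome 21 had 36, the first end of chromosome 22 had 35, and the first ends of chromosomes 6 and 21 had 31 each. Chromosome 21, with 31 and 36 sites, was the one chromosome with both of its ends among these 6. Fewest were at the far end of chromosome 22 (6), the first end of chromosome 3 (8) and the first ends of chromosomes 7 and 24 (10 each).

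Drl and Blf counts per end varied partly together. Over the 49 ends, Drl sites and Blf sites had a Pearson r of 0.59 (Spearman 0.53). These counts share the 206 sites of both factors, and Drl-only against Blf-only counts gave 0.11 (Spearman 0.11). The share of sites with raised background ranged from 15.4% to 70% per end, and its r with the number of sites was 0.22 (Spearman 0.19). At the 2 densest ends it was 47.4% (chromosome 1, far) and 42.1% (chromosome 14, first), near the median over ends of 45%. The other ends named as densest were above that median. They had 52.8% (chromosome 21, far), 57.1% (chromosome 22, first), 58.1% (chromosome 6, first) and 51.6% (chromosome 21, first). Among the ends named with the fewest sites it was 16.7% (chromosome 22, far), 25% (chromosome 3, first) and 50% (first ends of chromosomes 7 and 24).

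In the main count, all Drl sites leaned to the first ends and Blf-only sites to the far ends. The intervals of these shares are likely too narrow. Counts per end had a variance over the mean of 2.24 (Drl) and 1.93 (Blf-only). First ends held 293 Drl sites and far ends 234, a first-end share of 55.6% (51.2 to 59.9), with more at the first end on 15 of 24 chromosomes. For Blf-only sites the counts were 179 and 224, a share of 44.4% (39.5 to 49.4), with more at the first end on 7 chromosomes and at the far end on 15. The matching sets had intervals that included 50%. Drl-only sites numbered 150 and 120 (55.6%, 49.4 to 61.6), and all Blf sites 307 and 334 (47.9%, 44.0 to 51.8). Neither the Drl lean nor the Blf-only lean held in every other count, most of them added after the data were seen. For all Drl sites it held only where first ends were measured from the first peak. With sites under 10 kb apart counted once the Drl share was 53.0% (47.9 to 58.0) and the Blf-only share 47.6% (42.1 to 53.1). With raised background left out these were 50.5% (44.7 to 56.3) and 47.2% (40.4 to 54.1). At the genome-wide background they were 51.6% (44.2 to 59.0) and 45.9% (37.2 to 54.7). Without chromosome 22 the Drl share was 54.0% (49.5 to 58.4), while the Blf-only share was 43.2% (38.2 to 48.3) and still excluded 50%. With first ends measured from the first peak, both intervals still excluded 50%, at 55.8% (51.4 to 60.05) for Drl and 44.8% (39.9 to 49.8) for Blf-only sites. Over all 49 ends, chromosome 4 included, 36.5% (31.3 to 42.0) of Blf sites were shared with Drl at first ends and 26.3% (21.7 to 31.4) at far ends, and of the Drl sites 38.8% and 37.6%. The Blf difference was not seen with raised background left out, where 31.4% (24.5 to 38.9) of Blf sites were shared at first ends and 30.4% (23.9 to 37.6) at far ends. At the genome-wide background these shares were 30.4% (21.7 to 40.3) and 31.3% (23.0 to 40.6). The median distance from the end was 243 kb at first ends and 292 kb at far ends.

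Near-end sites lay close to each other. The median gap to the next near-end site was 16.9 kb, against 115 kb between interior sites. It was under 10 kb in 38.8% of cases (35.7 to 42.0) near the ends and in 16.3% in the interior. Of the near-end sites, 55.6% (52.5 to 58.7) had such a neighbour on either side, against 25.9% (24.7 to 27.0) of the interior sites. Closer spacing goes with higher density, and the 2 were not separated here.

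Chains with gaps under 10 kb and at least 4 sites numbered 38 and held 212 near-end sites (21.4%). The share of interior sites in chains of that size is not given, so this share cannot be set against the interior. The interior had a chain of 43 sites, longer than any near an end. The 4 longest near an end are named here after their values were seen. The longest had 15 sites on chromosome 1 from 59430722 to 59488824, with 8 Blf-only, 2 Drl-only and 1 shared site, and raised background at 5. Chromosome 25 from 37430886 to 37463469 had 12, of which 7 were Blf-only, with raised background at 6. On chromosome 21 a chain of 11 from 45451855 to 45487756 had 8 Blf-only, 3 shared and no Drl-only sites, and all 11 had raised background. At the first end of chromosome 21, from 218350 to 258111, 6 of 9 sites were shared and 8 had raised background. Chains thus differed in class as well as in background.

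**Figure D5:**
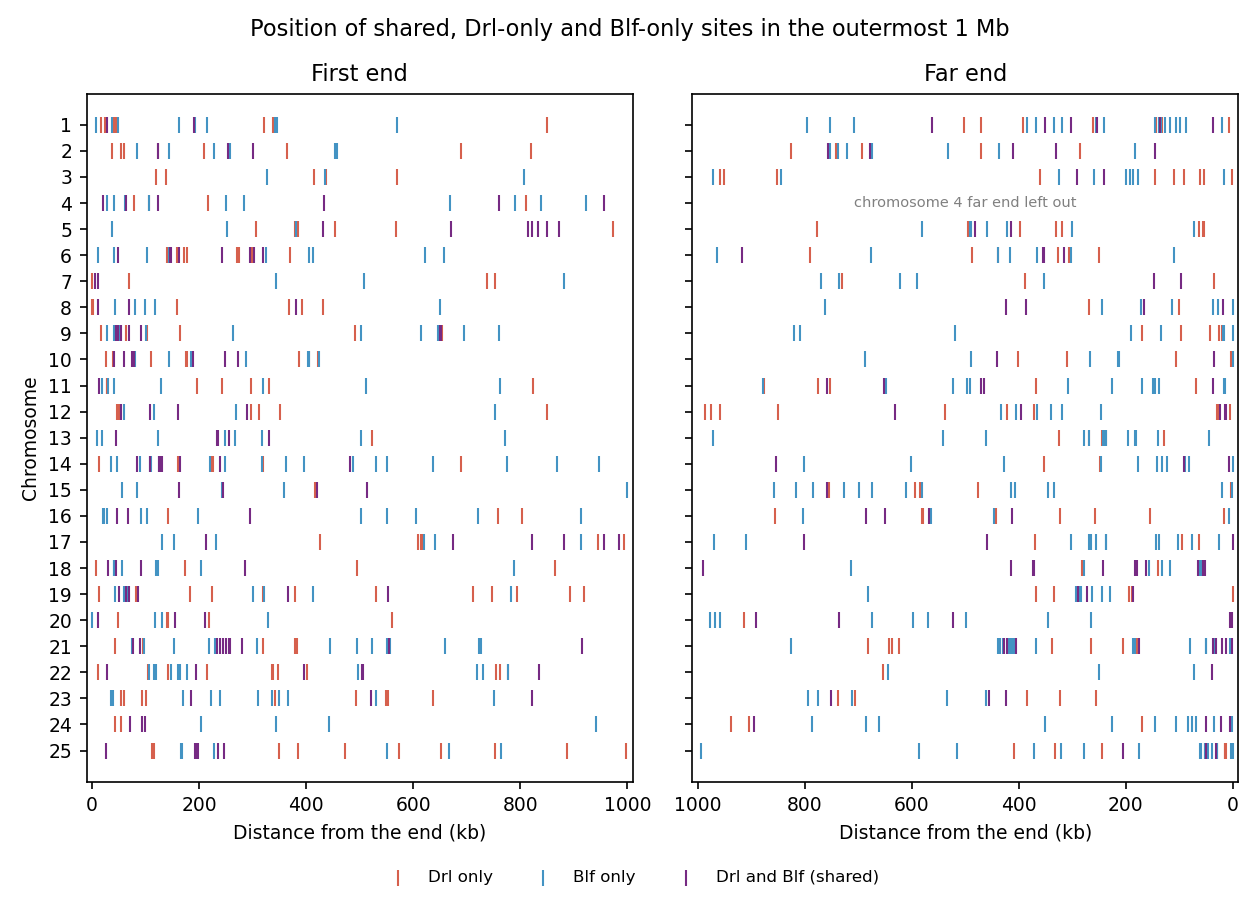
Position of each shared, Drl-only and Blf-only site (1 tick each) in the outermost 1 Mb of each chromosome, as distance in kb from the first end (left) and the far end (right). Ticks crowd towards the outer edge, where the outermost 250 kb hold 47.9% of the near-end sites, and form short chains such as that of 15 sites on chromosome 1.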

How the data were processed

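The submitters' processing notes name MACS2, bedtools 2.30.0, Bowtie2 2.4.2, SAMtools 1.10, Picard 2.26.1, FastQC 0.11.9 and bcl2fastq, and GRCz11 as build. Which settings, filters and control were used is not given there. The authors deposited 1 peak list per anti-FLAG library, in which each peak has a score (not used), a p-value and a q-value (both as −log10), a summit offset and, at the summit, its fold enrichment.

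Fold and p-value were inverted with the formulas of MACS2, a fold with pseudocount 1 and the upper tail of a Poisson distribution, into whole fragments and a control background, accepting a match within 0.05% of the fold. Between 99.4% and 99.8% of the peaks were read back; where several counts matched (2.62% to 5.11%), the closest was taken. No fragments were read where the −log10 p-value exceeded 290. A site took the peak of highest fold in each list, and its background was the highest over the lists, taken as genome-wide within 0.5%. Positions are counted from 1. The inversion and the joining of peaks were tested on simulated data. Shares carry exact Clopper-Pearson 95% intervals, density ratios exact conditional binomial intervals. Sites were named by fixed rules, by mean percentile of fold within the lists, by distance from an end or from the 1-Mb limit, and ends by their counts. The members, rules and most alternatives were chosen with earlier results of these data known. Python 3.11.15, numpy, scipy and pandas were used.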

Additional observations from a re-analysis of the deposited data

Results flagged for a closer look

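Near the ends, 530 further sites had a peak in 1 list only and so were not among those described. They are flagged as signal in peaks that no main comparison used, though leaving out 1 list at a time brought some of them in. They made up 34.5% (32.1 to 37.0) of all joined sites there, against 34.9% (33.9 to 35.8) in the interior. Of the 530, 104 and 109 were in Drl-FLAG 1 and 2, and 147 and 170 in Blf-FLAG 1 and 2.

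The last 1 Mb of chromosome 4, left out by the rule, held 14 sites, flagged in the same way. They were 2 shared, 3 Drl-only, 6 Blf-only and 3 of other mixtures, a number below the median of 20 per end.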

How the results depend on the processing

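Of 93 alternative values, 38 lay outside the 95% interval of the value reported, and in none of the 50 density ratios, main ones included, did the ratio or its lower bound come to 1 or less (lowest 1.37, highest 8.83). The ratios depended on the limit of an end, since density fell with distance from the end. At 500 kb they were 5.39 (Drl), 8.03 (Blf), 3.69 (Drl-only) and 7.40 (Blf-only), and at 2 Mb 2.52, 3.77, 1.90 and 3.74, with raised background at 38.8%. Keeping peaks of −log10 q 5 or more, the Blf ratio was 7.46 and the Blf-only ratio 7.55. With the 2000 best peaks per list the ratios were 4.03 (Drl), 8.41 (Blf) and 8.83 (Blf-only). With a reciprocal overlap of 50% the Drl-only ratio was 2.89, and 28.7% of near-end Drl and 24% of near-end Blf sites were shared. Among sites at the genome-wide background, still over the whole span, the ratios were 1.89, 3.41, 1.37 and 3.06 (Drl, Blf, Drl-only, Blf-only). Background was raised at 50.2% over 1.5 times and at 27.3% over 3 times the genome-wide value. Added after the data were seen, counting sites under 10 kb apart once gave 3.15 (Drl), 4.49 (Blf) and 4.68 (Blf-only), and leaving out raised sites 2.52 (Drl) and 4.30 (Blf). Leaving out 1 list at a time gave ratios of 3.65 to 3.87 (Drl), 5.06 to 5.54 (Blf), 2.72 to 2.97 (Drl-only) and 4.65 to 5.32 (Blf-only). The shared part was then 33.1% to 43.8% of Drl sites and 27.1% to 34.1% of Blf sites. The lists of a factor were too alike to count as replicates, so these values cannot show how libraries vary. The first-end share of all near-end sites lay between 48.8% (raised sites left out) and 51.4% (−log10 q 5 or more), and was 48.9% without chromosome 22; the first and last of these were added after the data were seen. No paired analysis was possible because each factor counts as 1 sample, so replicate libraries could not be paired between the factors; the ends of a chromosome were set side by side without a test. Sites without a Blf peak may lie under the lower depth of Blf-FLAG, and far ends are set by the last peak and not by the assembly.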
